A study of Mus musculus with 12 samples.

Results

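The genes of fatty acid oxidation and ketone body formation were described in ChIP-seq peak lists from mouse liver. The 30 genes were chosen by name and not by a measured value, out of 21938 protein-coding genes on the autosomes and the X and Y chromosomes of the GENCODE annotation vM21 (mm10). Of these, 22 encode enzymes of mitochondria and 7 encode enzymes of peroxisomes, and Crat encodes a carnitine acetyltransferase found in both. LSD1, a demethylase of mono- and dimethylated H3K4 and H3K9, was precipitated from the liver of wild-type C57BL/6 mice in 2 libraries. H3K4me2, a histone mark of active promoters and enhancers, was precipitated from control and LSD1-LKO liver of the same labelled strain, in 2 libraries per group. Control and LSD1-LKO mice were both LSD1 fl/fl adults, and a tail vein injection of the viral vector AAV8 gave the controls GFP and the LSD1-LKO mice Cre recombinase, each from the TBG promoter. Since this promoter works in hepatocytes, the other cells of LSD1-LKO liver keep their Lsd1 alleles. For LSD1-LKO and control mice in general, injection took place at 6 to 7 weeks of age, a high-fat diet began 1 week later and tissue was taken 4 to 5 weeks into that diet. The ChIP mice are not singled out there, and chow-fed mice were also part of the study. Nothing states that the libraries came from separate animals, so any spread between them may be technical.

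Each of the 3 deposited lists pairs a peak of one library, called first-listed here, with the overlapping peak of the other, called second-listed, and a peak found in a single library is not in it. The lists hold 14584 LSD1 peaks, 43891 control H3K4me2 peaks and 50675 LSD1-LKO H3K4me2 peaks, without reads, so the depth of the libraries is unknown. Among marker genes of hepatocytes, 7 of 8 had an H3K4me2 promoter peak in control liver (Cps1 had none) and 8 of 8 in LSD1-LKO liver. Of 12 markers of other liver cells, 2 and 3 had such a peak, and of 8 markers of other tissues, 0 and 1. Deletion of Lsd1 itself could not be checked, because no LSD1 ChIP of LSD1-LKO liver was among the lists.

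In hepatocytes, a fatty acid is activated to acyl-CoA, carried into mitochondria as a carnitine ester by CPT1 and CPT2, and shortened in repeated rounds of dehydrogenation, hydration, dehydrogenation and thiolysis. Very long and branched chains start in peroxisomes, where a separate set of enzymes runs the same kind of cycle. The acetyl-CoA made in fasting liver feeds the synthesis of ketone bodies. Transcription of these genes is known to answer to PPARα, which binds DR1 elements, and to ERRα, NRF1 and GABPα, which bind elements of their own.

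Sequences at the LSD1 peaks of Acads, Hadh, Cpt2 and Acaa1b are shown because these peaks carry the LSD1 results below. Acads and Hadh are among the 3 members whose LSD1 peak passed a q-value of 0.05 in both libraries, Cpt2 holds a GABPα core, and Acaa1b had the highest-ranking promoter peak of a peroxisomal member. For Acads and Acaa1b, where the peak lies inside the gene, the run covers 300 bp at the center of the peak. For Hadh and Cpt2, whose peaks lie at the start, it is the RefSeq promoter, from 250 bases before to 50 after the RefSeq start. All 4 are read 5′ to 3′ on the minus strand, which is the strand of the genes, in GRCm38.p6, the build of mm10. Capitals mark a match to a searched motif, which is DR1 (2 copies of AGGTCA with 1 base between them and at most 1 mismatch in the 12 letters) on the opposite strand at Acads, and the GABPα and ETS core CCGGAAGT at Cpt2. The runs of Hadh and Acaa1b held no match.
Acads, chr5:115118798-115119097: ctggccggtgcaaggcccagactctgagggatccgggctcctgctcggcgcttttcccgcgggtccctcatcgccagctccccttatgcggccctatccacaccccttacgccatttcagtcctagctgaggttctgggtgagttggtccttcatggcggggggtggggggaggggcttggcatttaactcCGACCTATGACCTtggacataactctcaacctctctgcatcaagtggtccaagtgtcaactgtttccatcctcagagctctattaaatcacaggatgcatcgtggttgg
Hadh, chr3:131272052-131272351: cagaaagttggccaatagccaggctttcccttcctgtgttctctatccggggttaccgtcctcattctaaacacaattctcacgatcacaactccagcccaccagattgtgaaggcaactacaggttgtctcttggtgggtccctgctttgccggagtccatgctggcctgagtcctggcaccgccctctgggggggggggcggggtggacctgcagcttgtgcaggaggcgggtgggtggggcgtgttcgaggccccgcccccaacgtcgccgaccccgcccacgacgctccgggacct
Cpt2, chr4:107923540-107923839: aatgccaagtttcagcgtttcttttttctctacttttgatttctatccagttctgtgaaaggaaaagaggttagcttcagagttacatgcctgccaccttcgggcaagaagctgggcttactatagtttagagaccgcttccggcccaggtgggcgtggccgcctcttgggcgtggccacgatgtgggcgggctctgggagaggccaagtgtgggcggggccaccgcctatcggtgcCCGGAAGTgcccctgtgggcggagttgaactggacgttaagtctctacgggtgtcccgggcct
Acaa1b, chr9:119156664-119156963: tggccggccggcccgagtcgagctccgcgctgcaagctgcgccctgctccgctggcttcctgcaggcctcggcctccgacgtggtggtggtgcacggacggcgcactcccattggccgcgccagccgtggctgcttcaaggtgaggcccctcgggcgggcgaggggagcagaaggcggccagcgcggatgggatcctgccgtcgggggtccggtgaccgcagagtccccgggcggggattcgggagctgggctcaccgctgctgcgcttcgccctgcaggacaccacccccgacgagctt

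LSD1 was listed at the promoters of 11 of the 30 genes, 36.7% of them, at Cpt2, Acads, Acad9, Hadh, Echs1, Acsl1, Decr1, Ehhadh, Acaa1b, Crat and Crot. A promoter was 1 kb on either side of any annotated transcript start, and an overlap of 1 bp counted. An LSD1 promoter peak was present at 24.6% of all protein-coding genes and at 38.6% of those with an H3K4me2 promoter peak, so the share of the members was close to that of marked genes. By compartment, 7 of 22 mitochondrial genes (31.8%) and 3 of 7 peroxisomal genes (42.9%) had a peak, besides Crat. By role, a peak was listed at 4 of 7 genes of the carnitine shuttle and acyl-CoA activation, 2 of 7 acyl-CoA dehydrogenases, 4 of 9 hydratases, dehydrogenases and thiolases, and 1 of 3 auxiliary enzymes of unsaturated fatty acids. None of the 3 electron transfer genes (Etfa, Etfb and Etfdh) had 1, nor had Bdh1, the ketone body dehydrogenase. The peaks were modest. Fold enrichment over the control library, as MACS gives it, ranged from 2.18 to 5.61 in the first-listed library (median 3.84) and from 2.60 to 5.25 in the second-listed library (median 3.43), against medians of 3.32 and 3.51 over all 5447 LSD1 promoter peaks. Peaks were also ranked within their list by −log10 p-value, averaged over the libraries, and the percentile rank of the 11 peaks ranged from 27.6 to 92.4 with a median of 74.3, against 69.4 for all LSD1 promoter peaks.

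**Figure D1:**
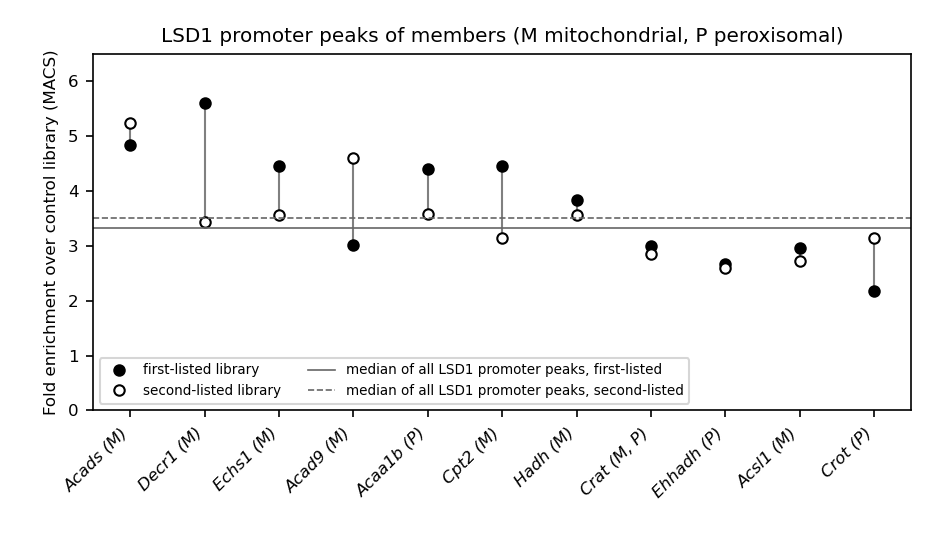
LSD1 promoter peaks of the 11 members that have one, ordered by percentile rank in the LSD1 list. The vertical axis gives MACS fold enrichment over the control library, filled circles stand for the first-listed and open circles for the second-listed library, and the lines mark the medians of all LSD1 promoter peaks (3.32 and 3.51). Acads, Echs1, Acaa1b and Hadh lie above the line of the library in both libraries, while Crat, Ehhadh, Acsl1 and Crot lie below both lines in both libraries.

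Acads, the dehydrogenase of short-chain acyl-CoA, had the highest-ranking of these peaks, with a fold enrichment of 4.84 and 5.25 at percentile 92.4. The peak (chr5:115118714-115119181) was centered in an intron, 328 bp downstream of the nearest transcript start, and it alone passed a MACS p-value of 1e-05 in both libraries. The DR1 match in its sequence began 369 bp downstream of that start, on the opposite strand. Decr1, which reduces the double bonds of unsaturated acyl-CoA, followed with 5.61 and 3.43 (percentile 89.0), and here the libraries differed. Echs1, the short-chain enoyl-CoA hydratase, had 4.45 and 3.56 (percentile 81.3) in a peak centered at −117 bp from its start, where minus is upstream. Acad9, an acyl-CoA dehydrogenase that also serves complex I assembly, had 3.01 and 4.61 (percentile 80.1).

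Among the shuttle genes, Cpt2, the inner carnitine palmitoyltransferase, had a fold enrichment of 4.46 and 3.14 (percentile 74.3). Its CCGGAAGT match began 13 bp upstream of the RefSeq start. Hadh, the short-chain 3-hydroxyacyl-CoA dehydrogenase of mitochondria, had 3.84 and 3.57 (percentile 73.7), and the peak covered its start. In the peroxisomal group, Acaa1b, a 3-ketoacyl-CoA thiolase, had 4.40 and 3.59 (percentile 76.8), and Ehhadh, the bifunctional enzyme, had 2.67 and 2.60 (percentile 39.3). Crot, the carnitine octanoyltransferase, had the lowest-ranking peak (2.18 and 3.14, percentile 27.6), at an internal transcript start, and the peaks of Acsl1 (2.97 and 2.72) and Crat (3.0 and 2.85) were also at internal starts. Acads, Hadh and Echs1 were the members left at a q-value at or below 0.05 in both libraries, where 6.81% of all protein-coding genes had an LSD1 promoter peak. None of the 3 is peroxisomal.

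LSD1 and H3K4me2 mostly lay together at these promoters. By the first-listed intervals of the lists, of the 11 peaks, 9 overlapped a control H3K4me2 peak, against 89.1% of all LSD1 promoter peaks, and 8 overlapped an LSD1-LKO H3K4me2 peak. The share of all LSD1 promoter peaks was computed for the control list only. The exceptions in control were Crat and Crot, and in the second-listed intervals 11 of 12 LSD1 promoter peaks overlapped a control peak. At Crat the LSD1 peak overlapped, by first-listed intervals, an H3K4me2 peak of the LSD1-LKO list only. The second-listed control intervals covered more of the Crat promoters (3411 against 1899 bp), so this may not hold there. At Hadh and Decr1 it overlapped an H3K4me2 peak of the control list only, but in both genes the second-listed LSD1-LKO interval reached it.

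Counting the gene body and 10 kb on either side, 19 of the 30 genes had an LSD1 peak, against 43.7% of all protein-coding genes and 60.5% of those with an H3K4me2 promoter peak, so that here too the members were close to marked genes. Their 29 distinct peaks included 18 away from promoters. By first-listed intervals, 6 of these 18 overlapped H3K4me2 in both lists, 5 in the LSD1-LKO list only, 1 in the control list only and 6 in neither. These counts have no background, since the share over all LSD1 peaks away from promoters was not computed, and the LSD1-LKO list is the longer one. The highest-ranking of the 18 lay upstream of Acaa1b, at −3661 bp, with a fold enrichment of 5.16 and 4.84 (percentile 92.1). Its first-listed interval overlapped no H3K4me2 peak of either group, while the wider second-listed interval reached a region of the LSD1-LKO list. Peaks beyond the 3′ ends of Cpt2 (3.0 and 6.0, percentile 89.4), Cpt1a (2.34 and 5.77, percentile 81.7) and Acad10 (3.73 and 4.27, percentile 80.3) overlapped H3K4me2 in both lists. Inside gene bodies, the highest-ranking peaks away from promoters lay in introns of Cpt1a (3.48 and 3.77, percentile 68.7), Hadh (4.15 and 2.49, percentile 59.9) and Acsl1 (3.73 and 2.18, percentile 53.8). Cpt1a, the rate-limiting carnitine palmitoyltransferase of liver, had no LSD1 promoter peak. For 11 genes, among them Acadm, Acadl, Acadvl, Acaa1a, Etfa, Etfb and Etfdh, no LSD1 peak was listed in the gene body or within 10 kb.

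H3K4me2 was listed at the promoters of all 30 genes in control liver and of 29 in LSD1-LKO liver, against 59.6% and 59.8% of all protein-coding genes. Hsd17b4 alone was marked at its promoter in control but not in LSD1-LKO, a pattern seen at 3.03% of all genes. The reverse pattern was seen at no member, against 3.17% of all genes. The start of the gene record lay inside an H3K4me2 peak at 17 members in control and 19 in LSD1-LKO, against 37.7% and 32.9% of all genes and 60.0% and 52.3% of marked genes. In whole liver, a mark in fewer cells and a weaker mark in each cell cannot be told apart. Extent was measured as the promoter length covered by peaks, in the intervals of each library. Members have a median promoter length of 5998 bp, since several starts count, compared with 4203 bp for all marked genes, which gives a peak more room to be found.

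The members did not shift in a common direction. In the first-listed intervals the covered length was lower in LSD1-LKO at 15 members and higher at 15, with a median change of −29.0 bp, while over all 13777 marked genes it was lower at 59.8% and higher at 39.9% with a median of −114 bp. In the second-listed intervals it was lower at 10, higher at 17 and equal at 3, with a median of 43.0 bp, against 42.4% lower, 52.6% higher and a median of 25.0 bp over all marked genes. The sign of the median depended on the library for the members and for all marked genes alike. As a stricter description, both LSD1-LKO libraries were below both control libraries at 3 members (background 17.3%) and above both at 6 (background 15.1%). With 2 libraries per group the smallest two-sided p of an exact permutation test is 0.333, so no difference in a single gene could reach significance.

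**Figure D2:**
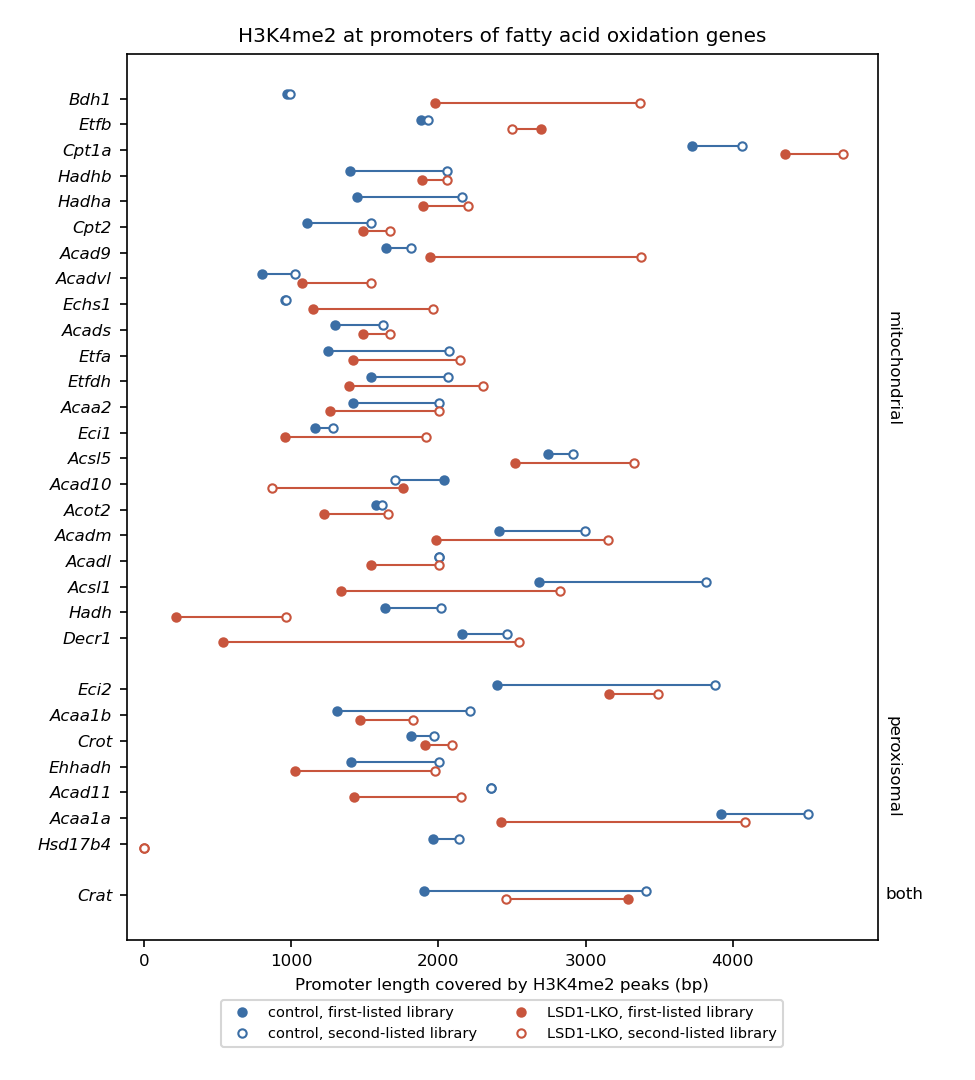
Promoter length covered by H3K4me2 peaks at the 30 members, in bp on the horizontal axis, by compartment and ordered by the change in the first-listed intervals. Filled and open circles are the first- and second-listed library of control (blue) and LSD1-LKO (red), and a line joins the libraries of a group. The red pair lies left of the blue pair at Hadh, Acad11 and Hsd17b4, and right of it at Bdh1, Etfb, Cpt1a, Acad9, Acadvl and Echs1. At Hsd17b4 both red values are 0 because the LSD1-LKO list, which omits peaks found in a single library, held no promoter peak.

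Hsd17b4, the peroxisomal multifunctional enzyme of very long and branched chains (ENSMUSG00000024507), had 1964 and 2140 bp of its promoters covered in the control libraries and 0 and 0 bp in the LSD1-LKO libraries. Both values of 0 come from the same absence from the list, which omits peaks found in a single library. They are not separate measurements, and an unlisted peak in either LSD1-LKO library cannot be seen. The control list held 2 promoter peaks, with a fold enrichment of 2.31 and 2.87 for the upstream peak (percentile 18.9) and 3.09 and 8.28 for the peak over the beginning of the gene (percentile 81.0). In LSD1-LKO the nearest listed peak began 2298 bp downstream of the start. An LSD1 peak lay at −1301 bp, at the bottom of the LSD1 list (2.10 and 1.78, percentile 0.336), and it reached the promoter window in the second-listed library only. Hsd17b4 was marked in control but not in LSD1-LKO under each of the other definitions of promoter, peak and overlap that were tried.

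Hadh (ENSMUSG00000027984) had 1635 and 2015 bp covered in control and 214 and 962 bp in LSD1-LKO, without overlap between the groups. A control H3K4me2 peak (chr3:131271446-131272773, fold enrichment 4.87 and 9.0, percentile 92.8) covered the start and the LSD1 peak. No first-listed LSD1-LKO interval overlapped it, and the second-listed one overlapped only its part inside the gene. Downstream, a control peak (5.09 and 9.0) did have a counterpart in LSD1-LKO, which began 864 bp inside the gene in the first-listed library and 116 bp inside it in the second-listed library. What was missing in LSD1-LKO was thus the part over and upstream of the start. Hadh had the highest-ranking of the 7 promoter regions that members had in the control list only, which ranged from percentile 18.9 to 92.8 with a median of 52.6.

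Acad11, a peroxisomal acyl-CoA dehydrogenase of long chains, was the remaining gene with both LSD1-LKO libraries lower, at 2357 and 2357 bp in control and 1423 and 2150 bp in LSD1-LKO. A control peak of 4373 bp across its start faced 2 promoter peaks in LSD1-LKO, with the start in the gap between them in the first-listed library and covered in the second-listed library. The second of these LSD1-LKO values lay only slightly under control. Decr1 had 2163 and 2464 bp in control and 535 and 2547 bp in LSD1-LKO, so that the loss was in the first-listed library alone. Acsl1, the long-chain acyl-CoA synthetase of liver, had 2685 and 3816 bp in control and 1334 and 2825 bp in LSD1-LKO, and Acaa1a had 3923 and 4515 bp against 2427 and 4084 bp. In both of these genes the 4 libraries overlapped between groups.

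**Figure D3:**
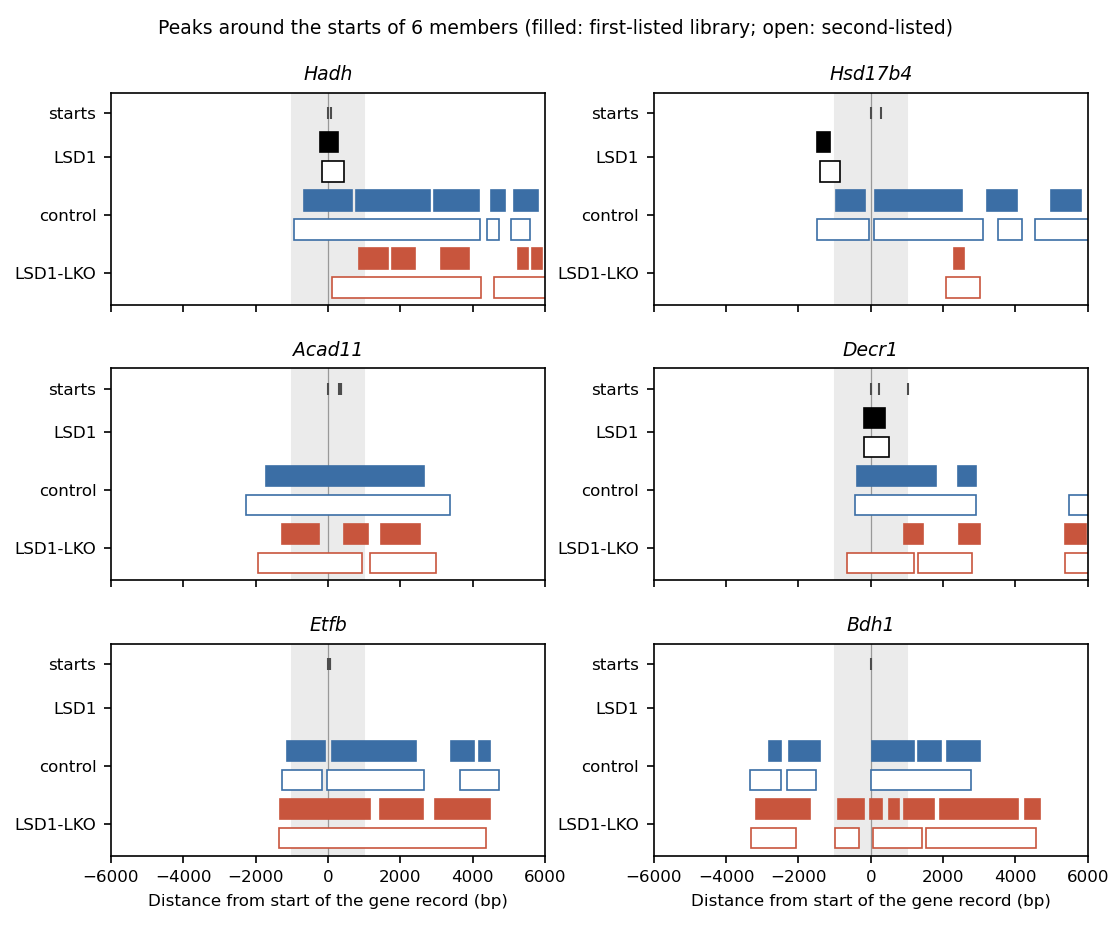
Listed peaks within 6000 bp of the start of the gene record for 6 members, with the direction of transcription to the right. Filled boxes are intervals of the first-listed and open boxes of the second-listed library, ticks are annotated transcript starts, and the gray band spans 1000 bp on either side of the start. At Hadh the control peak over the start has no LSD1-LKO counterpart in the first-listed library, and at Hsd17b4 the band is empty in LSD1-LKO. At Bdh1 several short first-listed LSD1-LKO intervals fill the band.

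On the side of gains, Bdh1, which interconverts acetoacetate and 3-hydroxybutyrate, had 970 and 988 bp covered in control and 1979 and 3367 bp in LSD1-LKO. The control list held 1 promoter peak with a fold enrichment of 6.34 and 5.4 (percentile 74.7). The LSD1-LKO list held 6 entries there, of percentile 16.0 to 47.6. Each is a first-listed interval, and 1 second-listed interval, from 51 to 1419 bp downstream of the start, overlapped several of them. At a q-value at or below 0.05 none of these 6 was left and the change at Bdh1 became −970 bp. The gain thus rested on entries that did not pass this threshold. Etfb, the beta subunit of the electron transfer flavoprotein, had 1880 and 1927 bp in control and 2699 and 2497 bp in LSD1-LKO, and was higher in LSD1-LKO under all 10 other settings. Cpt1a had 3726 and 4067 bp against 4354 and 4748 bp. With peaks at a p-value at or below 1e-05 its first-listed change was −661 bp and that of Echs1 was −392 bp, and at a q-value at or below 0.05 Cpt1a differed by 3 bp. Acad9 had 1643 and 1814 bp against 1941 and 3379 bp, Acadvl, the very long-chain acyl-CoA dehydrogenase, had 797 and 1024 bp against 1069 and 1544 bp, and Echs1 had 956 and 961 bp against 1147 and 1966 bp. None of these 6 genes with a gain in both libraries is peroxisomal, but only 7 of the 30 members are. With the start of the gene record as the only start, the peroxisomal Acaa1b was among the genes with such a gain. Eci2, the peroxisomal enoyl-CoA isomerase, had 2395 and 3881 bp in control and 3158 and 3493 bp in LSD1-LKO. Crat had 1899 and 3411 bp in control and 3289 and 2462 bp in LSD1-LKO. Both were higher in the first-listed but lower in the second-listed intervals, so that the groups overlapped.

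Mitochondrial and peroxisomal members were set side by side. The median change was 10 and 106 bp in the first- and second-listed intervals of the 22 mitochondrial genes, and −381 and −387 bp in those of the 7 peroxisomal genes. In the first-listed intervals 4 of 7 peroxisomal genes were lower and 3 higher, and 11 of 22 mitochondrial genes were lower and 11 higher. In the second-listed intervals 6 of 7 peroxisomal genes were lower and Crot was higher, whereas 3 of 22 mitochondrial genes were lower, 16 higher and 3 equal. Without Hsd17b4 the peroxisomal medians were −144 and −297 bp. With the start of the gene record as the only start, the peroxisomal median was 59.0 bp, and it was 5.0 bp with peaks at a p-value at or below 0.01. At a q-value at or below 0.05 the order of the compartments turned round, with a median of −317 bp in mitochondrial and −68 bp in peroxisomal genes. With so few peroxisomal genes the difference between compartments is a description and was not tested.

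Regions present in 1 H3K4me2 list only were common around both kinds of gene. In the gene body and 10 kb around, 22 members had a region listed in control only and 21 had one in LSD1-LKO only, against 34.3% and 37.3% of all genes and 48.6% and 51.8% of marked genes. Acsl1 had 6 and 7 such regions, Hadhb had 7 and 1 and Bdh1 had 1 and 7. At promoters, 7 members had a region in control only, namely Acadm, Hadh, Acsl1, Eci1, Hsd17b4, Acaa1a and Acaa1b. The 9 with a promoter region in LSD1-LKO only were Cpt1a, Acadm, Acad9, Echs1, Acsl1, Etfb, Eci2, Acaa1b and Bdh1. Their 11 regions ranked low, with a median percentile of 17.9 and a highest of 66.8, at Echs1, where the region also overlapped the LSD1 peak. For promoter regions in 1 list only, the share of all genes was not computed, so the counts of 7 and 9 members have no background.

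The strength of the mark was compared only by rank, for the 29 genes in both lists. For each library, the p-value of the highest promoter peak was placed as a percentile among all entries of the list. A second-listed peak counts again for each first-listed peak paired with it, and peaks found in a single library are left out. The median rank was 87.5 and 76.5 in the control libraries and 80.8 and 78.4 in the LSD1-LKO libraries, and 14 genes were lower and 15 higher in LSD1-LKO. The 4 libraries did not overlap between groups at 7 genes. Higher in both LSD1-LKO libraries were Cpt1a (72.1 and 68.3 in control, 89.4 and 91.7 in LSD1-LKO), Etfdh (72.1 and 66.2, then 86.7 and 91.6), Acadvl (61.7 and 27.4, then 64.8 and 65.4) and Acads (72.1 and 71.1, then 76.2 and 85.2), against 16.6% of all genes in both lists. Lower in both were Bdh1 (93.1 and 55.6, then 40.2 and 52.7), Crat (94.5 and 97.6, then 68.2 and 91.8) and Decr1 (80.5 and 66.2, then 59.2 and 63.6), against 16.7%. Each had a two-sided exact permutation p of 0.333, the smallest that 2 libraries against 2 allow. Ranked by fold enrichment instead, Acadvl, Acads and Decr1 overlapped between the groups, Acad10 became lower in both, and Cpt1a, Etfdh, Bdh1 and Crat stayed apart. The lists differ in length, so a rank gives the place of a peak among its peers and not an amount of H3K4me2. At Hadh (87.5 and 92.5, then 89.0 and 86.2) the highest-ranking control peak was that over the start, and in LSD1-LKO it was the peak downstream.

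**Figure D4:**
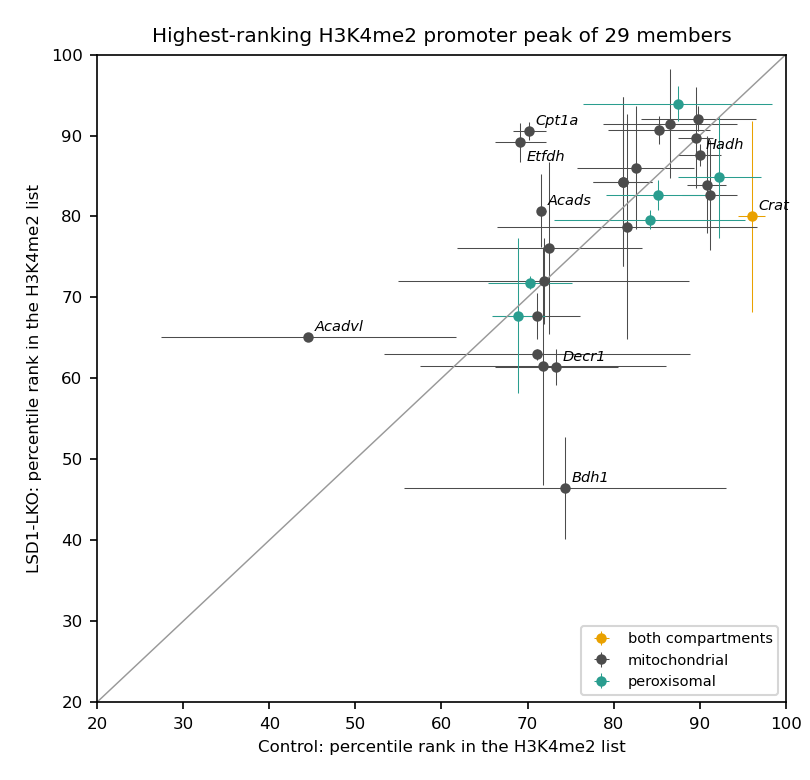
Percentile rank of the highest-ranking H3K4me2 promoter peak of each of 29 members, control on the horizontal and LSD1-LKO on the vertical axis. Points are means of 2 libraries, bars run from the lower to the higher library, and the diagonal marks equal ranks. Cpt1a, Etfdh, Acadvl and Acads lie above the diagonal with bars clear of it, and Bdh1, Crat and Decr1 lie below it.

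The remaining members had covered lengths whose library values overlapped between the groups. Hadha and Hadhb, the subunits of the trifunctional protein, start 86 bp apart on opposite strands and share their promoter peaks. They had 1448 and 1398 bp covered in the first-listed control library and 1893 and 1885 bp in the first-listed LSD1-LKO library, but nearly equal lengths in the second-listed ones. Of the genes with a promoter region in 1 list only, Acadm had 2410 and 2994 bp in control and 1980 and 3156 bp in LSD1-LKO, Eci1 had 1161 and 1280 bp against 955 and 1912 bp, and Acaa1b had 1307 and 2212 bp against 1468 and 1825 bp. Acads, with the highest-ranking LSD1 promoter peak, had 1297 and 1624 bp against 1485 and 1667 bp. Cpt2, Acadl, Acad10, Acaa2, Acsl5, Etfa, Etfdh, Ehhadh, Crot and Acot2 ranged from 1105 to 2914 bp over the control libraries and from 870 to 3331 bp over the LSD1-LKO libraries. Acaa1a and Acaa1b are close paralogs, so that reads from shared exons could be placed at either gene. Their RefSeq promoters had no run of more than 8 identical bases in common. That comparison does not settle the placement of reads in the LSD1 peak of Acaa1b. This peak, centered 280 bp downstream of the start, lay mostly outside the compared promoter. Counting the pair of Hadha and Hadhb, 8 members have a gene starting within 1 kb on the other strand, among them Brap at Acad10, Paox at Echs1, Myd88 at Acaa1a and Ptpa at Crat, and the lists cannot assign a promoter peak to either gene of such a pair.

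RefSeq promoters, from 250 bases before to 50 after the start in GRCm38.p6, were at hand for 25 members, all but Acad9, Acaa2, Decr1, Hsd17b4 and Crat. Their median GC content was 60.7% against 52.7% over 32851 RefSeq promoters, and the ratio of observed to expected CpG was 0.58 against 0.38. It was 0.69 in mitochondrial and 0.52 in peroxisomal members. The 32851 promoters outnumber the protein-coding genes used above. No value over protein-coding or marked genes alone was computed for the GC content or motifs of these promoters. The palindromic core of NRF1 was found in 2 promoters, those of Acad10 and Etfdh, against 0.971% of all promoters, and CCGGAAGT in 1, that of Cpt2, against 3.89%. The ERRα element TCAAGGTCA (0.423% of all promoters) and DR1 (0.554%) were found in none. Within 500 bp on either side of the start, DR1 was found at Acadvl, Acads and Etfdh, 12% of the members against 1.81% of all. In the 300 bp at the centers of the 11 LSD1 promoter peaks there were 2 CCGGAAGT matches, at Cpt2 and Decr1, against 4.52% of all LSD1 promoter peaks, and 1 DR1 match, at Acads, against 0.679%. Both strands were searched, the searched motifs do not overlap in these runs, and a match is a description of letters and not of binding.

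The promoters of Acad10 and Etfdh are given because they are the members with an NRF1 core, which is in capitals, and no LSD1 promoter peak was listed at either. Both are read 5′ to 3′ from the minus strand of GRCm38.p6.
Acad10, chr5:121660461-121660760: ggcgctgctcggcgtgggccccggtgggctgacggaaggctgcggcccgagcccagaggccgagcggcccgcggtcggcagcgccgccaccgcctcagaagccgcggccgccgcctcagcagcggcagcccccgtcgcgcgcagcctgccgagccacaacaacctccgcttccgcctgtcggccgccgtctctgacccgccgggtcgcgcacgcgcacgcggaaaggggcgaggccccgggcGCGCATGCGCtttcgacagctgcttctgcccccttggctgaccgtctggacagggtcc
Etfdh, chr3:79628718-79629017: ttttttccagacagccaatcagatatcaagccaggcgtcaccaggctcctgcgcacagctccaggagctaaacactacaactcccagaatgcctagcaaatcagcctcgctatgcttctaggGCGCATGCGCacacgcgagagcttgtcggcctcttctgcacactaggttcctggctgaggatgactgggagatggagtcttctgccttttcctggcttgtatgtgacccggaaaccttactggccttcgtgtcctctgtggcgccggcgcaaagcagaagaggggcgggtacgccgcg

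A further 46 genes of fatty acid uptake, activation, oxidation and ketone metabolism were listed beside the members. LSD1 was listed at the promoters of 20 (43.5%, beside 38.6% of all marked genes), namely Cpt1b, Slc22a5, Slc27a5, Acsl3, Acsm3, Acsm5, Acox2, Decr2, Phyh, Hacl1, Scp2, Abcd2, Abcd3, Acot1, Acot4, Acot8, Acot12, Mlycd, Acadsb and Pcca. H3K4me2 promoter peaks were listed at 43 in control and 44 in LSD1-LKO liver, and Cpt1b, the carnitine palmitoyltransferase of muscle, had none in either. Acot3, a peroxisomal acyl-CoA thioesterase, was marked in control but not in LSD1-LKO by the first-listed intervals, although 771 bp were covered in the second-listed LSD1-LKO library. Cpt1c and Abcd2 were marked in LSD1-LKO but not in control. The median change in covered length was −18.0 bp, with both LSD1-LKO libraries lower at 3 genes (Slc27a2, Acsm3 and Acot3) and higher at 6, beside 17.3% and 15.1% of all marked genes.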

How the data were processed

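LSD1 ChIP-seq of wild-type mouse liver and H3K4me2 ChIP-seq of control and LSD1-LKO liver were used as 3 deposited peak lists, each joining the peaks of 2 libraries. Per the study's methods and the submitters' processing notes, the authors aligned reads with Bowtie2 to mm10, called narrow peaks with MACS2 against a control library and intersected libraries with bedtools 2.25.0. The deposited fold enrichment is a ratio over that control, which the methods describe as IgG and the labels as input. The deposited −log10 p-value and −log10 q-value are those of MACS2. Depth is unknown, and 12 columns of scores and summit offsets were not used, so windows were placed at peak centers.

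Members and lists were chosen with earlier results of these data known. Promoters (1 kb around any GENCODE start), covered lengths, ranks and motif matches were computed with Python 3.11.15, numpy 2.4.6, pandas 2.3.3 and pysam 0.24.0, tested on simulated data, and drawn with matplotlib 3.10.9. Named with their values are members with an LSD1 promoter peak, an H3K4me2 promoter peak or region in 1 list only, or the 5 largest losses or gains of covered length, and the 3 highest-ranking intragenic LSD1 peaks. Other members whose libraries did not overlap, and such genes of the wider pathway, were named after their values were seen, and some genes are not reported here. Ranks were compared by a two-sided exact permutation test. Other promoter widths, starts, thresholds, overlaps and the second-listed intervals were tried.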

Additional observations from a re-analysis of the deposited data

How the results depend on the processing

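No paired analysis was possible because the columns of the lists carry no replicate numbers, and leaving out a library was possible only as the intervals of the second-listed library alone. The count of members with an LSD1 promoter peak (11) fell to 3 at a q-value of 0.05 (6.81% of all genes) and to 1 at a p-value of 1e-05 (5.68%). The count with an LSD1 peak in the gene body and 10 kb around (19) fell to 4 and 2, and that of LSD1 promoter peaks overlapping control H3K4me2 (9) to 3 and 1. Members with H3K4me2 in the control list only (1) became 2 with promoters of 500 bp (3.37% of all genes) and 2 with 50% overlap (3.41%). They became 3 at the q-value threshold (5.49%) and 7 at the p-value threshold (8.18%), where 1 was in the LSD1-LKO list only (5.42%). The median change in covered length (−29.0 bp) was −462 bp at the p-value threshold. It turned positive in the second-listed intervals (43.0 bp), with promoters of 500 bp (13), the start of the gene record (95.0), coding transcripts (42.5), p-values at or below 0.01 (49.5), and the overlap (24.0) or union (43.0) of both intervals. Members lower in both LSD1-LKO libraries (3) became 5 with promoters of 2 kb (17.2% of all marked genes). They became 7 at the q-value threshold (22% of all marked genes), where members higher in both fell from 6 to 2 (14.6%). The median rank change (0.10) was −0.150 with ranks by fold enrichment, and promoters with a motif (3) became 5 within 500 bp. The cause of these changes was not tested.

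The alternatives for compartments and single genes were chosen after seeing the data. The median over mitochondrial members (10 bp) was −317 bp at both thresholds. That over peroxisomal members (−381 bp) was 59.0 bp with the start of the gene record and 5.0 bp at a p-value of 0.01. It was −68 bp at the q-value threshold, above the mitochondrial value, and −950 bp at the p-value threshold of 1e-05, below it. Reversals of single genes at the p-value threshold of 1e-05 were Cpt1a (−661 bp), Echs1 (−392), Acsl1 (467), Eci2 (−950) and Bdh1 (−970), and at the q-value threshold Echs1 (−392) and Bdh1 (−970). In the second-listed intervals they were Eci2 (−388), Decr1 (83) and Crat (−949), and in the union Eci2 (−54), Decr1 (198) and Crat (−122). Acaa1a was 192 bp higher with the start of the gene record.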
